A study of Hymenochirus boettgeri with 8 samples.

Results

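Among the 145306 assembly genes of Hymenochirus boettgeri, the dwarf clawed frog, 63 were present in every egg and early cleavage library and stood at least 4 times higher in every later library. RNA carrying a poly-A tail had been sequenced from whole wild-type animals at 4 stages, with 2 libraries each. The stages were the unfertilized egg, the embryo of 8 cells, the embryo at stage 26 of the Nieuwkoop and Faber (NF) scale for Xenopus, and the swimming tadpole. The labels give no treatment, and nothing in them tells separate clutches from repeats of one, or how many animals were pooled per library. The p-values below therefore speak of variation among these 8 libraries, part or all of which may be technical. Below, the 4 egg and 8-cell libraries are called early and the 4 stage 26 and tadpole libraries late.

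In frogs the egg is loaded with RNA made during oogenesis, and the embryo cleaves without transcribing most of its own genes until the mid-blastula transition. RNA found in eggs and cleaving embryos is therefore called maternal. Some maternal genes are transcribed again from the embryo's genome, and such genes can stand at a low level early and a high level later. Poly-A capture reads only RNA that carries a tail, and tails of maternal RNA can lengthen or shorten without new transcription, so amount and tail length cannot be told apart in these libraries.

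The members were chosen by measured values, namely TPM, a length-corrected share of the library's transcripts scaled to a fixed sum, added up over the transcripts of each assembly gene. A member had at least 5 TPM in each early library, at least 50 TPM in each late library, and a lowest late value at least 4 times its highest early value. Of 8906 genes that met the early minimum and 839 that met the late one, 639 met both, and 63 of these also met the fold. The difference between early and late is thus set by the choice, and it is described here without a test. The lowest early value of a member was 5.25 TPM, against 4.80 TPM for the nearest gene that failed only there. The smallest ratio of a member was 4.02 and the nearest ratio below the limit was 3.96. The lowest late value of a member was 56.1 TPM, and no gene failed on the late minimum alone. The files pair no identifier with a gene name, so the members are given by identifier or by their rank in mean late TPM, and neither their functions nor the tissues sampled could be checked against known markers. The 63 members came from 62 assembly components, since the members of rank 5 and rank 18 shared one and may be pieces of one transcript or close copies.

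The late libraries did not group by stage for these genes, which bears on every late value below. It also bears on the SEs and intervals of the early comparison, since the fit took a common spread per gene from all 8 libraries. Stage 26 replicate 2 resembled tadpole replicate 1, and stage 26 replicate 1 resembled tadpole replicate 2. Across the 63 members, log2 TPM correlated at r = 0.956 between the first of these pairs and at r = 0.911 between the second. Between the 2 stage 26 libraries r was 0.687, and between the 2 tadpole libraries it was 0.742. Over all 119072 genes that passed a filter of at least 1 TPM in at least 2 libraries, the order was otherwise, with r = 0.704 between the stage 26 libraries, 0.747 between the tadpole libraries, and 0.695 and 0.630 for the pairs across stages, on log2(TPM + 1). These are correlations across genes of the same libraries, and genes are not independent replicates. Among the early libraries, the members of egg replicate 1 stood apart: r was 0.373 to egg replicate 2 and 0.546 and 0.600 to the 8-cell libraries. Egg replicate 2 stood at 0.725 and 0.821 to the 8-cell libraries, which correlated with each other at 0.854. Over all genes tested, the egg libraries were also the least alike early pair, with r = 0.662 on log2(TPM + 1). There egg replicate 1 stood at 0.778 and 0.777 to the 8-cell libraries, and egg replicate 2 at 0.774 and 0.837. The 8-cell libraries correlated with each other at 0.888 there.

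The member with the highest late level was c30847_g1. It stood at 77.7 and 128 TPM in the egg libraries (replicates 1 and 2, in this order throughout) and at 144 and 245 TPM in the 8-cell libraries. It stood at 3675 and 4375 TPM at stage 26 and at 5569 and 2576 TPM in tadpoles. Its late mean was 27.2 times its early mean, and its stage 26 values lay between its tadpole values.

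The member of second rank, c4155_g1, was listed at 18.9 and 276 TPM in the egg libraries and at 237 and 298 TPM in the 8-cell libraries. At stage 26 it had 4626 and 1498 TPM, and in tadpoles 1969 and 5087 TPM. In each late stage one library was thus about as high as one library of the other stage. Egg replicate 1 alone held a low early value for this gene, and the late mean was 15.9 times the early mean.

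The next members by late mean showed the opposite order of late libraries. The member of rank 3 had 161 and 161 TPM in eggs, 99.9 and 141 TPM at the 8-cell stage, 993 and 4035 TPM at stage 26, and 4247 and 1058 TPM in tadpoles. The member of rank 4 had 11.1 and 101 TPM in eggs, 18.8 and 34.8 TPM at the 8-cell stage, 914 and 2888 TPM at stage 26, and 3175 and 931 TPM in tadpoles. In both, stage 26 replicate 2 and tadpole replicate 1 were high, and the other late libraries were well below them.

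Over all members the early mean ran from 7.02 to 207 TPM, with a median of 35.5 TPM, and the late mean from 74.5 to 4049 TPM, with a median of 628 TPM. Late means of 1000 TPM or more were reached by 14 members, 42 lay from 200 up to 1000 TPM, and 7 lay under 200 TPM. The ratio of late to early mean ran from 7.62 to 51.4 with a median of 18.4; it was at least 20 in 29 members, from 10 up to 20 in 25, and under 10 in 9. Early and late means correlated at r = 0.791 on the log2 scale (Spearman's rho 0.781, n = 63 genes). A positive relation is in part built in, since the rule sets each gene's lowest late value from its own highest early value, and nothing is read from it.

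The median early mean of the members, 35.5 TPM, lay near that of all 8906 genes that met the early minimum, 24.8 TPM. By late level many members were among the most abundant genes. None of the 63 was among the 500 genes with the highest early mean, and 3 were among the first 1000. By late mean, 23 were among the first 100 genes and 56 among the first 500. The median rank was 3585 by early mean and 153 by late mean. Both the early and the late ranks follow in part from the rule. It asked for 50 TPM late and for a lowest late value at least 4 times the highest early value. The fold limit thereby caps the early values, so nothing is read from the early ranks or the early median. Of the 839 genes that met the late minimum, the median late mean was 199.7 TPM, against 628 TPM for the members. The fold limit also favours high late values, so nothing is read from this difference. Of the 639 genes that met both minimums, 411 had a higher late than early mean and 228 a lower one, with a median ratio of 1.55.

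**Figure D1:**
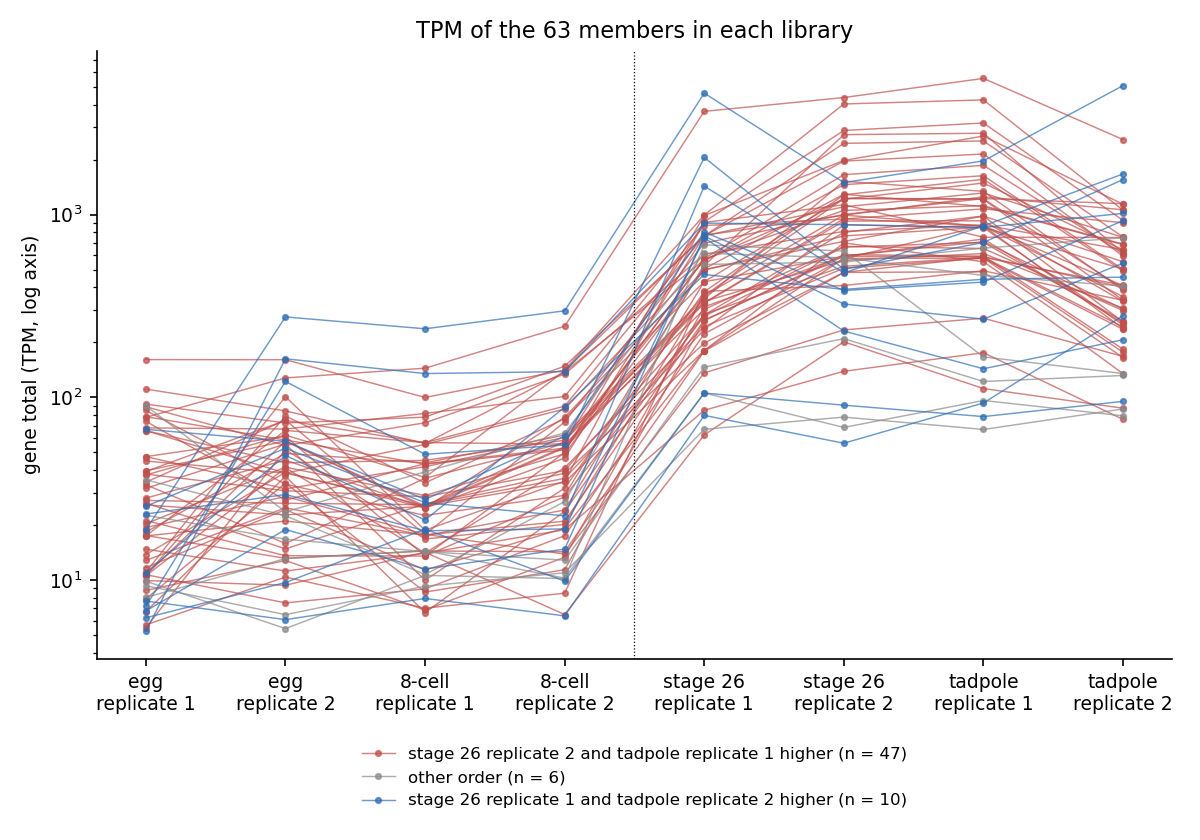
TPM of each of the 63 members (points joined by a line per gene, log axis) in the 8 libraries, with early libraries left of the dotted line. Colours give the order of the late libraries: 47 genes were higher in stage 26 replicate 2 and tadpole replicate 1, 10 were higher in the other late libraries, and 6 had another order.

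Together the members held well under 1% of the RNA early and several percent late. Their share of the TPM was 0.211% and 0.305% in the egg libraries and 0.221% and 0.354% in the 8-cell libraries. Late, it was 3.88% and 6.07% in the stage 26 libraries and 6.62% and 3.84% in the tadpole libraries. The egg mean was 0.258% ± 0.067 and the 8-cell mean 0.288% ± 0.094, while stage 26 averaged 4.98% ± 1.55 and tadpoles averaged 5.23% ± 1.97 (SD, n = 2 libraries each). Egg and 8-cell libraries overlapped, and so did stage 26 and tadpole libraries. The 10 highest members of each library held between 41.5% (stage 26 replicate 2) and 46.1% (8-cell replicate 1) of the members' TPM. These 10 were not the same genes in every library. The single highest member held from 7.24% (stage 26 replicate 2) to 13.4% (tadpole replicate 2). In whole animals, a change in the number of cells that express a gene and a change in RNA per cell cannot be told apart.

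**Figure D2:**
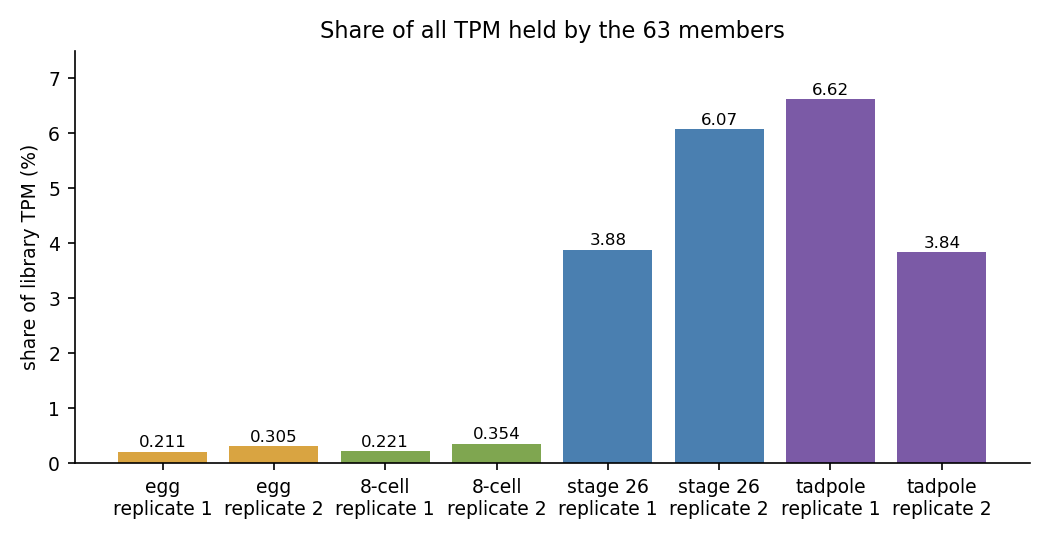
Share of all TPM of each library held by the 63 members (bars, 1 per library, in percent). The early libraries lie between 0.211% and 0.354% and the late ones between 3.84% and 6.62%, with stage 26 replicate 2 and tadpole replicate 1 above the other late libraries.

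Within each late stage, most members were higher in the same one of its libraries. Stage 26 replicate 2 lay above replicate 1 in 50 of the 63, and tadpole replicate 1 lay above replicate 2 in 50 of the 63. Both held for 47 members (74.6%), and the reverse of both held for 10 (15.9%). Over all 119072 genes tested, both held for 16.0% and the reverse of both for 43.1%. The median difference among members was 0.88 between the stage 26 libraries (replicate 2 minus 1) and 0.99 between the tadpole libraries (replicate 1 minus 2), on the log2(TPM + 1) scale. Over all genes tested these medians were -0.45 and -0.17.

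The size of the difference in one stage followed that in the other. Across the 63 members these differences correlated at r = 0.904 (rho 0.893). For 59 late-only genes, with under 1 TPM in every early library and at least 50 TPM in every late one, r was 0.688. For 80 steady genes, with at least 50 TPM in all 8 libraries and a highest value at most 4 times the lowest, r was 0.731, and over all genes tested it was 0.273. Of the late-only genes 44.1% and of the steady genes 50% had the order that prevailed among the members. The reverse of both held for 35.6% of the late-only genes and 32.5% of the steady genes. The crossed likeness of the late libraries was thus not confined to the members. These are descriptions of the same 4 libraries, and whether RNA quality or depth differed with them was not tested, since the table holds neither.

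**Figure D3:**
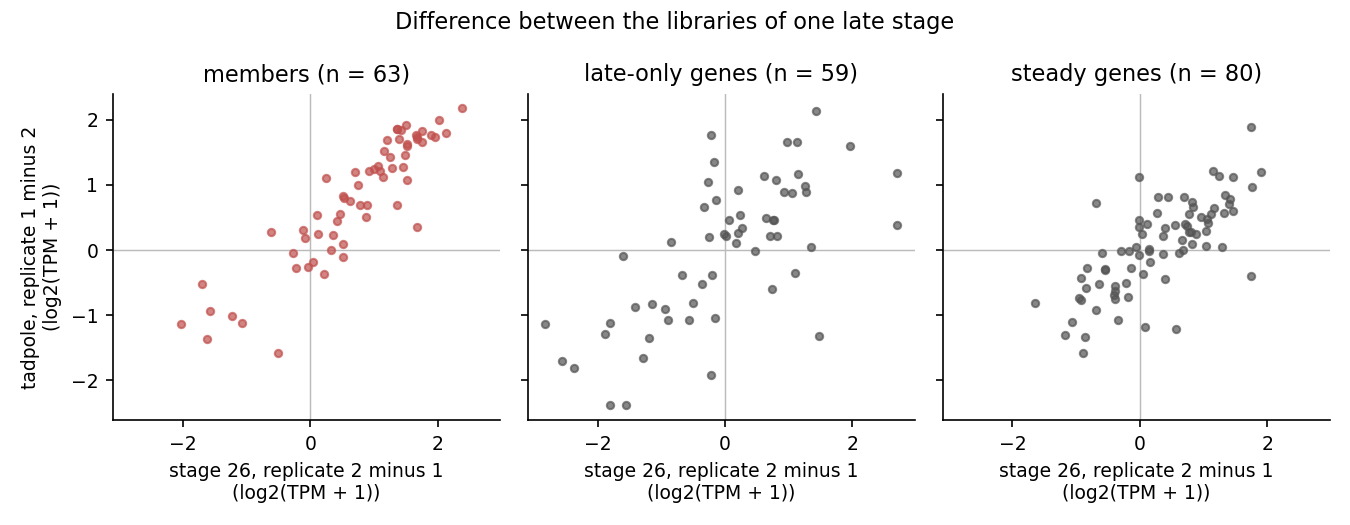
Difference between the libraries of one stage for each gene, stage 26 (replicate 2 minus 1, horizontal) against tadpole (replicate 1 minus 2, vertical), on the log2(TPM + 1) scale, for 63 members, 59 late-only genes and 80 steady genes. Most members lie in the upper right and close to a line, with a smaller group in the lower left.

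The split can be read in gene totals. The 47 members of the prevailing order summed to 24414 TPM in stage 26 replicate 1 and 24622 TPM in tadpole replicate 2, but to 53498 TPM in stage 26 replicate 2 and 58414 TPM in tadpole replicate 1. The 10 members of the reverse order, which included the members of rank 2, 9, 11 and 19, summed to 11985 TPM in stage 26 replicate 1 and 11836 TPM in tadpole replicate 2, against 4838 and 5847 TPM in the other pair. The 6 remaining members had ranks from 33 to 63. By single genes, 58 of the 63 differed by at most 1.5-fold between stage 26 replicate 1 and tadpole replicate 2, and 55 between stage 26 replicate 2 and tadpole replicate 1. Only 19 did so between the stage 26 libraries and 19 between the tadpole libraries. A 2-fold or larger difference between the libraries of a stage was present in 36 members at stage 26, 36 in tadpoles, 23 in eggs and 17 at the 8-cell stage. The largest, 31.0-fold, was in eggs: the member of rank 19 had 5.25 TPM in replicate 1 and 163 TPM in replicate 2, with 135 and 138 TPM at the 8-cell stage.

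The comparison of 8-cell embryos with eggs, which spans fertilization and the first cleavages, was not used to separate early from late and was tested. It is not free of the rule, which used the lowest and highest early values and so can limit how far these libraries differ. The same limit applies to the counts of libraries that did not overlap. No member passed in either direction (limma on log2(TPM + 1), two-sided, with Benjamini-Hochberg adjustment over 119072 genes), and 0% of all genes passed in either direction. At an unadjusted p under 0.05 there was also no member, against 5.9% of all genes higher in 8-cell embryos and 0.49% lower. All genes include those listed at 0 in every early library, which no member can be. Without such genes, 7158 of 86802 had an unadjusted limma p under 0.05, and 6606 of these were higher. A fitted change under 2-fold was present in 58 of 63 members and in 99226 of 119072 genes tested. It was present in 78 of the 80 steady genes, which their own rule holds within 4-fold. The median over all genes was 0. The median change among members was 0.17, with a range from -1.18 to 2.11. The sign of this median was not stable: it was -0.12 without egg replicate 1 and -0.065 without 8-cell replicate 2. After median-of-ratios scaling it was -0.47, and after quantile normalization -0.11. The intervals were wide. No member had a 95% interval within 2-fold in both directions, 19 had one within 4-fold and 52 within 8-fold. The fit took a common spread per gene from all 8 libraries, so a member's SE was the same in both tested comparisons. These intervals therefore also carry the differences between the late libraries of a stage.

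Both 8-cell libraries lay above both egg libraries for 5 members (7.94%), against 20.5% of all genes tested. They lay below both for 6 members (9.52%), against 3.13% of all genes. The shares of all genes include genes listed at 0 in every early library, which can be neither above nor below. The smallest two-sided p of an exact permutation test at this size, 2 libraries per stage, is 0.333. The largest change upward among the 5 was that of c95160_g1, from 33.3 and 15.9 TPM to 36.1 and 56.6 TPM, a log2 difference of 0.94 (limma SE 0.64, adjusted p = 1). The top member, c30847_g1, came second at 0.91 on the log2 scale (limma SE 0.74, adjusted p = 1). The largest change downward among the 6 was that of c140798_g2, from 84.8 and 33.5 TPM to 22.6 and 29.1 TPM, a log2 difference of -1.03 (limma SE 1.08, adjusted p = 1). The second, c83678_g1, went from 19.4 and 28.7 TPM to 17.8 and 13.9 TPM (log2 difference -0.56, limma SE 0.60, adjusted p = 1). In each of these cases the nearest libraries of the 2 stages differed by less than the libraries within either stage.

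The comparison of swimming tadpoles with stage 26 asks whether the members' levels differed further within the late period. The rule used the lowest of the late values, which can limit the differences among members here as well. No member passed, against 4.35% of all genes higher in tadpoles and 0.981% lower (limma, as above). Most of those calls depended on including genes listed at 0 in all early libraries, which no member can be. Without such genes, 77 of 86802 genes were higher and 6 lower, and again no member passed. The lack of calls among members is therefore not read as a trait of the members. At an unadjusted p under 0.05, 1 member was lower and none higher, against 4.78% and 11.6% of all genes. These shares again include genes listed at 0 in all early libraries. Without them, 7819 of 86802 genes had an unadjusted limma p under 0.05, and 5020 of these were higher. A fitted change under 2-fold was present in 60 of 63 members and in 87138 of 119072 genes tested. It was present in 74 of the 80 steady genes, which their own rule holds within 4-fold. The median over all genes was 0. The median change among members was 0.068, with quartiles of -0.050 and 0.16. Each late library moved this median: it was -0.37 without stage 26 replicate 1, -0.45 without tadpole replicate 1, 0.58 without stage 26 replicate 2 and 0.55 without tadpole replicate 2. No member passed under any of these. No member had a 95% interval within 2-fold, 24 had one within 4-fold and 59 within 8-fold. A change of several fold was thus not detectable for most. These intervals also carry the differences between the early libraries of a stage. The member of rank 19 had a limma SE of 1.37, with 899 and 881 TPM at stage 26 and 851 and 1016 TPM in tadpoles. The calls over all genes were not stable either: 6351 were made with all libraries, and 0 when only the stage 26 and tadpole libraries were fitted. Fewer were also made when any 1 library was left out, though only slightly fewer without stage 26 replicate 1. Leaving out an egg or 8-cell library changes the estimate of spread here, not the difference between the late stages.

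Both tadpole libraries lay above both stage 26 libraries for 4 members (6.35%), against 20.4% of all genes, and below both for 5 (7.94%), against 14.9% of all genes. For the late-only genes these counts were 22 and 7 of 59, and for the steady genes 6 and 17 of 80. The member that differed most was c845_g1. It had 684 and 632 TPM at stage 26 and 167 and 135 TPM in tadpoles, after 9.86 and 5.43 TPM in the egg libraries and 10.6 and 10.2 TPM in the 8-cell libraries. Its libraries of one late stage were close to each other, unlike those of most members. The log2 difference was -2.12 (limma SE 0.55, 95% interval -3.41 to -0.83), which did not pass after adjustment (limma adjusted p = 0.0796, with 0.0546 to 0.452 over 19 alternatives). Next was c132238_g4, with 747 and 231 TPM at stage 26 against 143 and 207 TPM in tadpoles (log2 difference -1.27, limma SE 0.70, adjusted p = 0.496). Here stage 26 replicate 1 was high and the other 3 late libraries were near each other; the difference was -0.42 without that library and -2.11 without stage 26 replicate 2.

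Among members whose late libraries did not overlap between the stages, the largest differences upward were smaller than that of c845_g1. The member c132867_g4 had 79.7 and 56.1 TPM at stage 26 and 93.2 and 280 TPM in tadpoles, a log2 difference of 1.26 (limma SE 0.66, adjusted p = 0.452), which was 0.47 without tadpole replicate 2 and 2.05 without tadpole replicate 1. The member c62970_g1 had 698 and 1002 TPM at stage 26 against 1225 and 1149 TPM in tadpoles (log2 difference 0.50, limma SE 0.83, adjusted p = 0.929). Its tadpole libraries were close to each other. None of these 4 genes reached the threshold under any alternative.

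**Figure D4:**
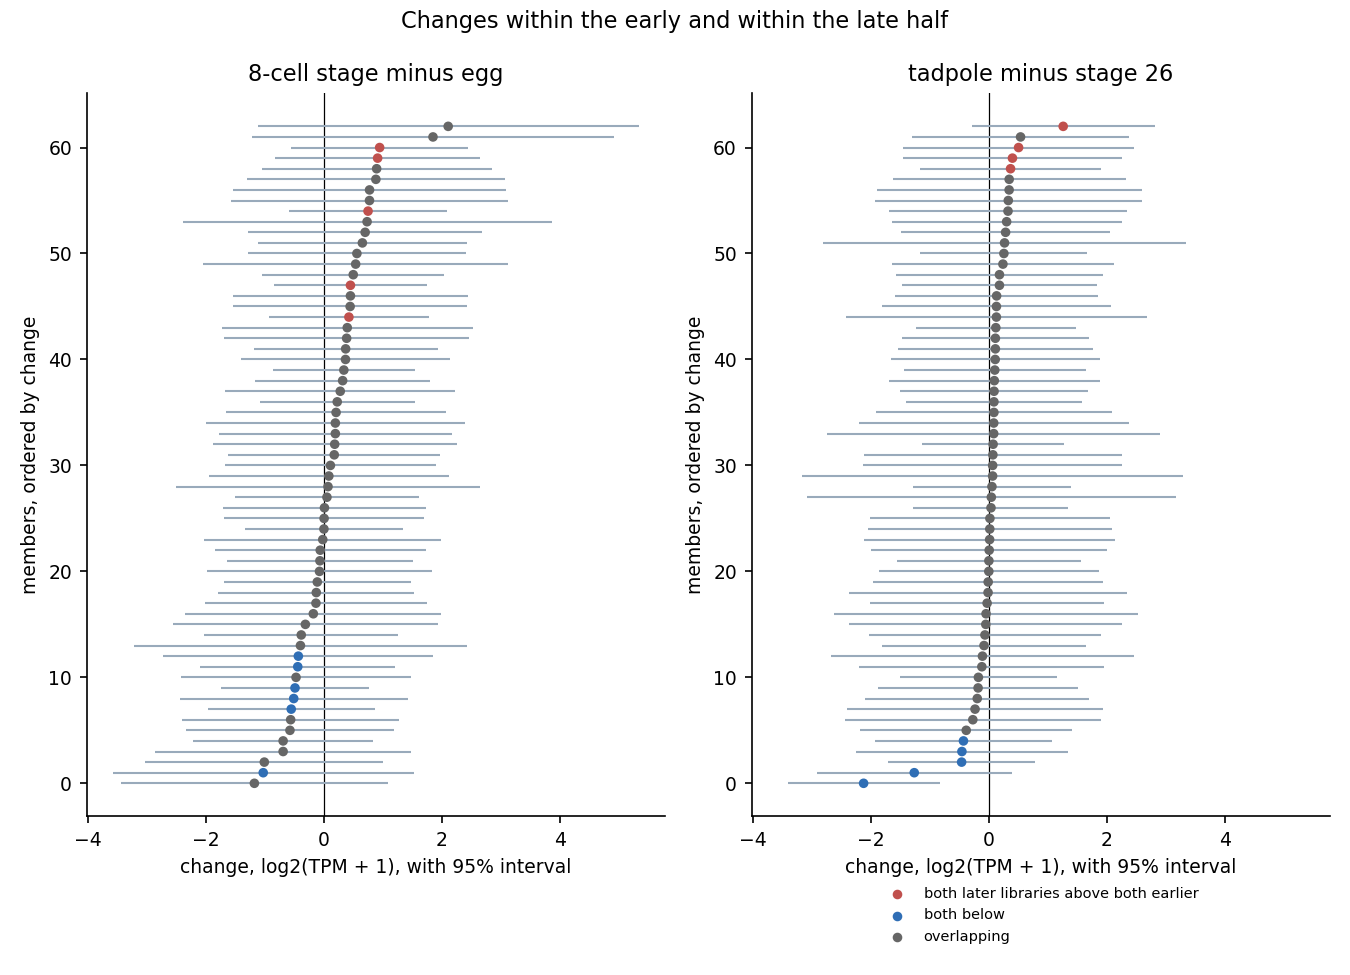
Change of each of the 63 members with its 95% interval from limma, on the log2(TPM + 1) scale, for the 8-cell stage minus the egg (left) and the tadpole minus stage 26 (right), each ordered by size. The intervals rest on a common spread per gene from all 8 libraries. Coloured points mark genes whose libraries did not overlap between the stages. On the right most points lie close to 0, and c845_g1 at -2.12 is lowest.

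How the transcripts of a member share its total was not used by the rule, although the early and late libraries are the same, so it is described without a test. The members had 106 transcripts. One transcript was listed for 36 members (57.1%), 2 for 22 members and 3 or more for 5. Of all genes tested 65.9% had 1 transcript, of the late-only genes 52.5% and of the steady genes 52.5%. Of the 106 transcripts, 90 were above 0 in all 8 libraries and 3 were listed at 0 in all early libraries.

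In 22 of the 27 members with several transcripts, the same transcript led, by mean TPM, in early and in late libraries. Its share of the mean total differed between early and late by -13.2 to 11.8 percentage points in these, with a median size of 3.92 points. Single libraries varied more: over the 4 early libraries of a gene the share spanned a median of 17.7 points, and over the 4 late ones 8.58 points. The widest early span was in the member of rank 11, from 0% to 100%, against 74.7% to 77.2% late, and the next in that of rank 48, from 27.3% to 100%, against 72.9% to 81.7% late. The top member was such a case, its leading transcript holding 65.3% of the early and 68.3% of the late TPM. In the second it held 68.5% and 63.6%, with 34.2% in egg replicate 1. These 22 genes were grouped by their shared leading transcript, so their similarity is in part a matter of grouping. Of the steady genes with several transcripts, the leading one differed in 4 of 38, and of such late-only genes, which have under 1 TPM early, in 16 of 28.

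In 5 members another transcript led late, by mean TPM, and it gained between 50.4 and 96.7 percentage points of the total. Without egg replicate 1 the count was 4, since the early lead in the member of rank 31 rested on that library. In the member of rank 42 the late leading transcript was listed at 0 in every early library and held 95.9% and 96.4% of the total at stage 26 and 97.9% and 97.2% in tadpoles. The transcript that led in the early libraries averaged 8.63 TPM late, so nearly all of the late total of this gene was assigned to a transcript that the early libraries did not show. The files give no counts, and a listing at 0 can be an estimate.

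In c845_g1, of rank 49, the late leading transcript was listed at 0 in 3 early libraries and held 3.20% in 8-cell replicate 1, against 84.2% and 93.4% at stage 26 and 79.0% and 82.0% in tadpoles. Its early leading transcript averaged 8.94 TPM early and 52.2 TPM late. In the member of rank 33 the late leading transcript held at most 0.937% early and 78.8%, 63.6%, 14.2% and 53.0% in the late libraries, in the order stage 26 then tadpole. Tadpole replicate 1 was the low one, and there another transcript led.

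The other 2 members had both transcripts in most early libraries. In the member of rank 31 the late leading transcript held from 34.6% (egg replicate 1) to 56.8% (egg replicate 2) early and from 99.4% to 99.7% late. It held 54.9% and 50.3% in the 8-cell libraries, so it trailed the other transcript in egg replicate 1 alone. The other transcript averaged 27.9 TPM early and 3.04 TPM late. In c132238_g4, of rank 54, with 6 transcripts, the late leading transcript held from 0% to 27.8% early and from 51.3% to 74.2% late. When the leading transcript had to be the same in all 4 early and in all 4 late libraries, 2 of the 5 remained, those of rank 42 and rank 49. Of the 63 members, 54 had at least 1 transcript that met the rule by itself.

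**Figure D5:**
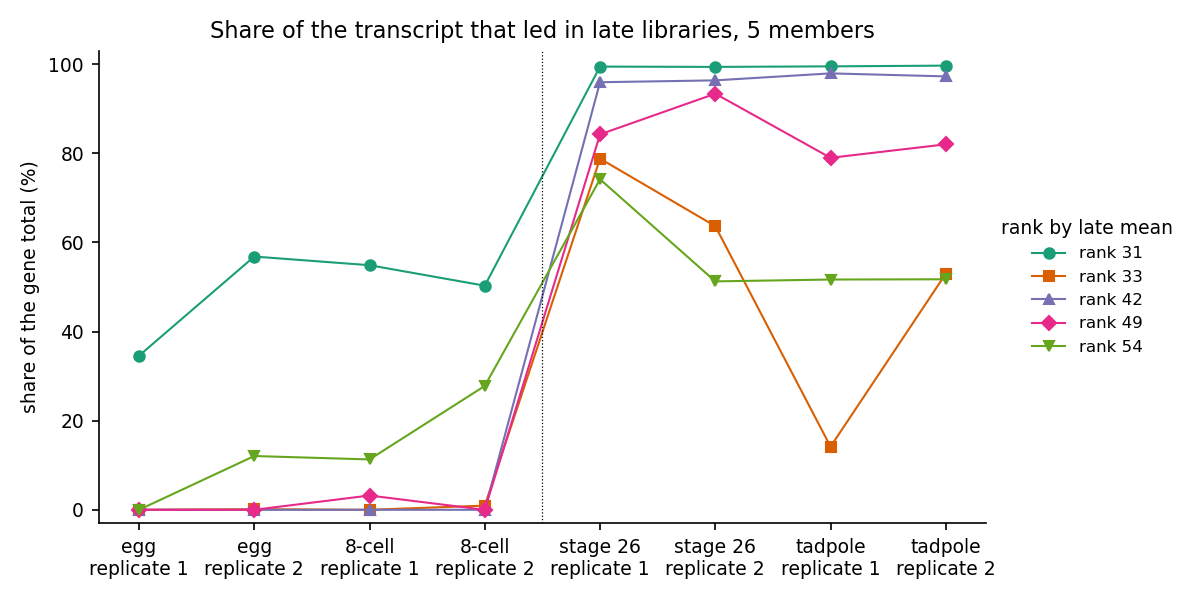
Share of the gene total (percent) held by the transcript that led in late libraries, in each of the 8 libraries. The 5 members are those in which another transcript led early by mean TPM. Lines join the values of one gene, named by its rank in mean late TPM. Ranks 33, 42 and 49 lie near 0 in all early libraries, and rank 33 drops to 14.2% in tadpole replicate 1. Rank 31 lies near 100 late and from 34.6% to 56.8% early, below 50 in egg replicate 1 alone.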

How the data were processed

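Per the labels, poly-A RNA of whole eggs, embryos or tadpoles was extracted with TRIzol, purified on columns and made into stranded Illumina libraries. The deposited values are TPM, for which the submitters' processing notes name kallisto 0.42.4. The transcript sequences were not used here, and which filters the authors applied is not stated. The 8 columns, 1 per library, fall short of the full TPM sum by 0.149% to 0.825%. TPM keeps no read depth, so depth is unknown and no counting interval is given; as a share, it falls for all genes when others rise.

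TPM was summed over the 220713 transcripts per assembly gene, the identifier without its isoform number. Genes with at least 1 TPM in at least 2 libraries (119072, 81.9%) were fitted on log2(TPM + 1), which understates changes of low genes, with limma 3.58.1 in R 4.3.3: 1 mean per stage, all 8 libraries, moderated variances with a trend, 4 residual and 3.12 prior degrees of freedom. All 63 members passed the filter by their definition. A gene was called at an adjusted p under 0.05. The fit was also run on simulated data with independent noise of a capped spread. Such data do not represent the wide spread of most members or the likeness of late libraries across stages. Nothing about the members is read from them. The members, gene groups, tests and rules for naming were chosen with earlier results of these data known. Named were the 2 members with the highest late mean and, per tested comparison, the 2 largest rises and 2 largest falls among members whose libraries did not overlap; other members are given by rank. No identifier was paired with a gene name, and no marker or pathway list was applied. Alternatives covered the pseudocount, filter, scaling, variance prior, stages fitted, replicate block, rule limits and each library left out. Other tools were Python 3.11.15, pandas 2.3.3, numpy 2.4.6, scipy 1.17.1 and matplotlib 3.10.9.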

Additional observations from a re-analysis of the deposited data

How the results depend on the processing

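No member passed in either comparison under any alternative run, and no gene at all passed between eggs and 8-cell embryos. The 6351 genes called between stage 26 and tadpoles became 1797 with a minimum of 5 TPM, 83 without genes listed at 0 in all early libraries, 3707 with quantile normalization, 2949 with a constant variance prior, 8937 with median-of-ratios scaling and 0 when only these 4 libraries were fitted; the range was 0 to 6285 when single libraries were left out. The cause was not tested. With the replicate number as a block (replicate block), 0 were called in that comparison. The numbers are not known to pair the libraries: deviations correlated at 0.165 between egg and 8-cell libraries and at -0.273 between stage 26 and tadpole libraries over all genes tested. With the late numbers crossed, an alternative chosen after seeing the data, 2602 genes and 0 members were called. The median member change from egg to 8-cell stage went from 0.17 to -0.47 with median-of-ratios scaling. Under quantile normalization it was -0.11, and the median of all genes there was -0.14. The rule found 132 members with a fold of 2, 20 with a fold of 8, 57 after median-of-ratios scaling (48 of them among the 63), and 65 to 90 when 1 library was left out. The leading transcript differed in 2 members when it had to lead in all 4 early and all 4 late libraries, and in 4 without egg replicate 1. All 8 named changes kept their direction in every alternative. The number of libraries, 2 per stage, limits the precision.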
